A study of Mus musculus with 4 samples.

Results

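miR-106b, miR-93 and miR-25 are 3 microRNAs (miRNAs) cut from 1 stretch of an intron of Mcm7, a gene for a subunit of the helicase that opens DNA for replication. They were followed in the joint lining (synovium) of mice, without arthritis and at its height. The 3 assays were chosen by name (mmu-miR-106b, mmu-miR-93 and mmu-miR-25, starred arms left out) from 750 miRNA assays, and all 3 gave a signal in every well. The study compared 2 pools of non-arthritic synovium (day 0, 3 mice per pool) with 2 pools of arthritic synovium (day 10, 10 mice per pool). All hosts were C57BL/6J mice in the serum transfer arthritis (STA) model, in which transferred K/BxN serum causes inflamed joints. The labels name the K/BxN serum source for the day 0 pools as well, and synovium was taken at the tibiotalar (ankle) joint. The series' design text calls the pools of a group biological replicates but does not say how the mice were divided, so that p-values measure the spread between these pools.

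miRNAs guide a silencing complex to messenger RNAs, mainly by pairing of the seed, bases 2 to 8 of the miRNA. The cluster is transcribed with Mcm7, which E2F factors switch on when cells enter the division cycle. miR-106b and miR-93 share a seed with miR-17 and are known to repress the cell cycle inhibitor p21, while miR-25 carries the seed of miR-92a and is known to repress Bim, a protein that promotes cell death. The miR-17-92 and miR-106a-363 clusters on other chromosomes are paralogs of this one. What the cluster does in synovium was not measured here.

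All 3 members were matched in RefSeq's miRNA table (build GRCm38.p6). Their hairpins lie on the minus strand within the span of Mcm7 (chr5:138164583-138172111), in the order miR-106b at chr5:138165737-138165818, miR-93 at chr5:138165523-138165610 and miR-25 at chr5:138165321-138165404. The 3 hairpins together span 498 bases, with 126 bases between the first and the second and 118 between the second and the third. The hairpins are shown because both arms of miR-106b and miR-93 were read, and the capitals mark the mature arms.
miR-106b hairpin: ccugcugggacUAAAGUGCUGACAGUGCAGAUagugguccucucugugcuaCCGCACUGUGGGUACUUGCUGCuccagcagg
miR-93 hairpin: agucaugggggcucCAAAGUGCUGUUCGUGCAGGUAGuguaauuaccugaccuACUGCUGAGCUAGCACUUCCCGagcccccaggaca
miR-25 hairpin: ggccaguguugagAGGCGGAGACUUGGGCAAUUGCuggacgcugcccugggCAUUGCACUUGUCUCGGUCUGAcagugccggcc

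The mature sequences of the members and of the relatives with the same seed show how alike the RNAs are that these assays read, and here the capitals mark the seed. The files give assay names without arms, and the arms below are those that carried the unstarred names in the older nomenclature.
miR-106b-5p: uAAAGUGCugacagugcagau
miR-93-5p: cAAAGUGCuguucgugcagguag
miR-17-5p: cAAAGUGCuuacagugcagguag
miR-20a-5p: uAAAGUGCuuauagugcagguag
miR-20b-5p: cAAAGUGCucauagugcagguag
miR-106a-5p: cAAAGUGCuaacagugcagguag
miR-25-3p: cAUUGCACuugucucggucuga
miR-92a-3p: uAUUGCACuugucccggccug
miR-363-3p: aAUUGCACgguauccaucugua
miR-367-3p: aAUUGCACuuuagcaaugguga
miR-32-5p: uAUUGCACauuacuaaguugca
Position by position from the 5′ end, miR-106b-5p is identical to miR-93-5p at 16 of 21 bases and to miR-17-5p, miR-20a-5p and miR-106a-5p at 18 of 21. miR-25-3p is identical to miR-92a-3p at 18 of 21 bases and to miR-106b-5p at 5 of 21. Whether an assay also reads its relatives was not tested.

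TaqMan PCR assays were run in 2 wells per pool. The Ct is the PCR cycle at which a well's signal passes a set value, and a lower Ct means more RNA. The level used below subtracts an assay's Ct from the median Ct, in the same pool and panel, of the assays detected in all 4 pools. A unit of level is 1 cycle, read as a doubling (log2 scale). That median over 134 panel A assays was between 12.5 and 12.8 in 3 pools and 15.9 in arthritic pool 2, which also gave a Ct for the fewest miRNA assays, 223 against 271 to 294. The 209 assays detected in all pools were tested with limma, with p-values adjusted by Benjamini and Hochberg's method and a threshold of 0.05, and 45 passed. As measures of tissue make-up, the summed linear level of 4 skeletal muscle miRNAs was 539 and 1254 in the non-arthritic pools and 128 and 71.96 in the arthritic pools, where miR-1 and miR-133b gave no Ct. In the arthritic pools that sum was mostly miR-206, read on panel B against its own median, which did not pass (log2 change -2.41, limma adjusted p = 0.0931). miR-133a fell, at -7.07 (limma adjusted p = 0.00421). The sum over 3 myeloid miRNAs was 20.4 and 16.9 against 41.04 and 108, that over 2 endothelial miRNAs 555 and 730 against 102 and 148, and that over 2 lymphoid miRNAs 147 and 278 against 39.2 and 65.8. The myeloid sum was mostly miR-223, at a log2 change of 1.77 that did not pass (limma adjusted p = 0.150). miR-142-3p passed at 3.83 (limma adjusted p = 0.0402). Neither endothelial miRNA passed, with miR-126-3p at -2.38 and miR-126-5p at -2.02 (limma adjusted p = 0.0686 and 0.176). The lymphoid sum was almost all miR-150, at a log2 change of -1.99 that did not pass (limma adjusted p = 0.105). miR-155 gave a Ct only in non-arthritic pool 1 (level -14.3) and arthritic pool 1 (level -9.06). Over 6 epithelial miRNAs the sum was 10.2 and 15.3 against 26.3 and 20.0, and over 3 erythroid miRNAs 1.76 and 3.04 against 1.97 and 0.65. The epithelial sum was almost all miR-203, at a log2 change of 0.87, while miR-205 stood at -0.97. The erythroid sum was mostly miR-451, at -0.78, and none of these passed. Among 4 fibroblast and mesenchymal miRNAs, the defining cells of synovium, 3 gave a Ct in every pool, and the summed level was 16.4 and 8.11 against 35.3 and 57.7. That sum followed miR-214, at a log2 change of 2.32, while miR-140 stood at -1.78 and miR-199a-3p at -0.69, and none of these passed. The part of these lists in the results below was not tested, and in pooled tissue fewer cells of a type and less RNA per cell cannot be told apart.

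miR-106b rose in arthritic synovium and miR-93 and miR-25, from the same transcript, did not pass the test. The share of all tested assays that passed was 21.5%, and 9.57% passed as higher and 12% as lower in arthritic pools. With 3 members, 1 call cannot be read against those shares. All 3 members had both arthritic pools above both non-arthritic pools, as had 39.2% of the tested assays, while 32.1% had both below.

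miR-106b gave Cts of 11.1 and 12.2 in the wells of non-arthritic pool 1, 9.90 and 13.3 in non-arthritic pool 2, 7.34 and 6.34 in arthritic pool 1 and 6.56 and 9.33 in arthritic pool 2. All 4 arthritic wells had a lower Ct than all 4 non-arthritic wells. As levels, the non-arthritic pools stood at 0.98 and 1.22 and the arthritic pools at 5.70 and 7.96. The arthritic pools thus lay further apart (2.26) than the non-arthritic pools (0.24), and the groups did not overlap. The wider arthritic gap was not particular to miR-106b: the median difference between pools across assays was 1.38 in the arthritic and 0.52 in the non-arthritic group. The mean level went from 1.10 ± 0.17 to 6.83 ± 1.60 (SD, n = 2 pools each), which is 53.1-fold. In log2 units the difference was 5.73 ± 0.97 (SE) with a limma adjusted p of 0.0153. The 95% interval ran from 3.36 to 8.10, and the change ranked 6 from the top among the 209. Among the panel A assays the rank of miR-106b by level moved from 54 and 55 in the non-arthritic pools to 14 and 10 in the arthritic pools, if assays are taken to amplify alike. The call was lost when either non-arthritic pool was left out, at 5.61 without pool 1 (limma adjusted p = 0.237) and 5.90 without pool 2 (limma adjusted p = 0.365), where limma called 0 assays in all.

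The wells of miR-106b differed more than those of most assays on its chip, by 3.39 cycles in non-arthritic pool 2 and 2.78 cycles in arthritic pool 2. There 97.8% and 95.1% of the chip's assays with both wells differed by less. With the first listed well alone the log2 change was 4.92 (limma adjusted p = 0.0715), and with the second alone it was 6.01 (limma adjusted p = 0.00645).

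miR-25, read on the same chip as miR-106b, gave Cts of 10.4 and 11.3 in non-arthritic pool 1, 9.23 and 11.4 in non-arthritic pool 2, 8.81 and 8.30 in arthritic pool 1 and 10.30 and 10.4 in arthritic pool 2. Only arthritic pool 1 lay below all non-arthritic wells, and the wells of arthritic pool 2 lay among them. After the pool's panel median was taken into account, its levels were 1.76 and 2.48 in the non-arthritic pools and 3.98 and 5.57 in the arthritic pools, with no overlap. The difference of 2.66 ± 0.87 log2 units (SE, 6.30-fold) missed the threshold, with an unadjusted p of 0.0226 and a limma adjusted p of 0.0750. Its 95% interval ran from 0.52 to 4.79. The call depended on the pool left out. miR-25 passed without arthritic pool 1 (3.50) or 2 (2.39), but not without non-arthritic pool 1 (2.29) or 2 (3.06). With 1 pool left in a group the spread comes from the other group alone, so these calls are not evidence on miR-25.

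miR-93, read on another chip of the same panel, had wells that agreed within 0.32 cycles in every pool. Its Cts were 13.2 and 13.3 in non-arthritic pool 1, 12.96 and 13.3 in non-arthritic pool 2, 12.5 and 12.2 in arthritic pool 1, and 15.2 and 15.5 in arthritic pool 2. The arthritic pools thus lay on either side of the non-arthritic pools before normalization. Its levels were -0.66 and -0.29 in the non-arthritic pools and 0.21 and 0.54 in the arthritic pools. The difference was 0.85 ± 0.73 log2 units (SE, 1.81-fold, limma adjusted p = 0.384) with a 95% interval from -0.92 to 2.63. In the authors' deposited table the day 10 minus non-arthritic difference of miR-93 was 0.71 log2 units, 1.64-fold, with no error given.

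**Figure D1:**
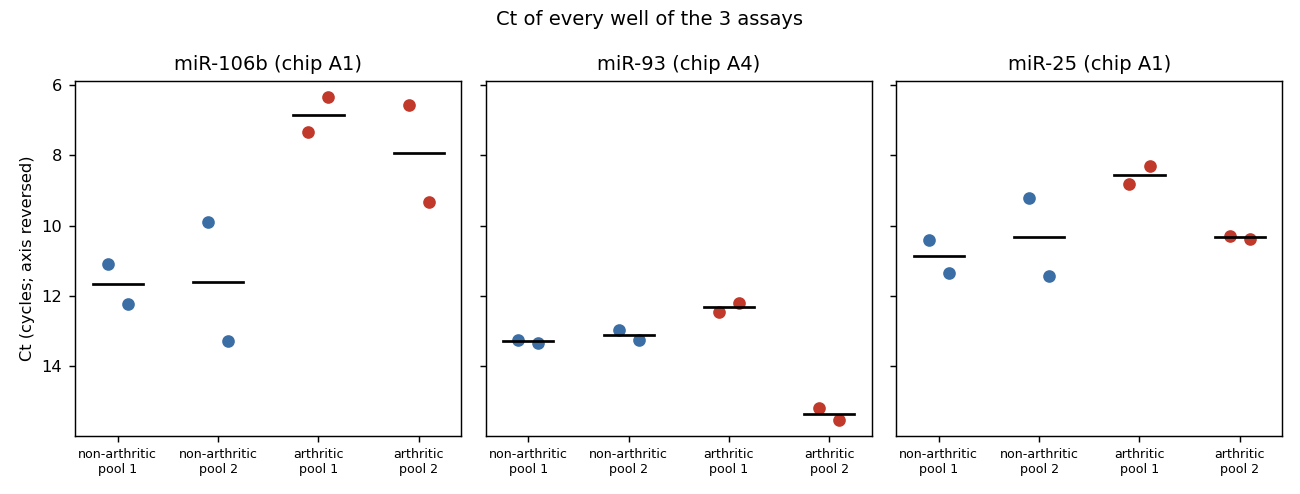
Ct in cycles (reversed axis, so that more RNA is higher) of both wells of the 3 assays in each pool, with the pool mean as a bar. The arthritic wells of miR-106b lie between 6.34 and 9.33 and its non-arthritic wells between 9.90 and 13.3, while the 2 arthritic pools of miR-93 lie on either side of its non-arthritic pools.

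The size of each change depended on the reference. With the small nuclear RNA U6 as the reference the median log2 change over all 209 assays was -2.51, against 0.19 with the panel median, and with raw Ct it was -1.43. The calls went from 20 higher and 25 lower to 1 higher and 54 lower with U6, 3 and 47 with U6 and both snoRNAs, and 0 and 8 with raw Ct. With U6 the members and their relatives all had the same SE, 1.80 log2 units, so an assay's own spread did not enter its p-value. Calls and p-values with U6, here and below, therefore cannot be set against those of the fit as reported. miR-106b had a log2 change of 2.87 with U6 (limma adjusted p = 0.239) and 4.24 with raw Ct (limma adjusted p = 0.0952), above 0 but not past the threshold. miR-25 stood at -0.20 with U6 and 1.16 with raw Ct, and miR-93 at -2.001 with U6 and -0.64 with raw Ct, so that the sign of both turned with U6 and that of miR-93 also with raw Ct. All 3 members were read on panel A and share 1 reference per pool. Their order therefore cannot differ between these references. miR-106b stood 5.54 log2 units above the median assay with the panel median and 5.38 with U6. On the same footing miR-25 stood 2.47 and 2.31 above it, and miR-93 0.67 and 0.51. A reference set per panel shifts every panel A assay by the same amount. These distances can therefore change only through the panel B assays, and their likeness does not show that the changes are robust to the reference.

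**Figure D2:**
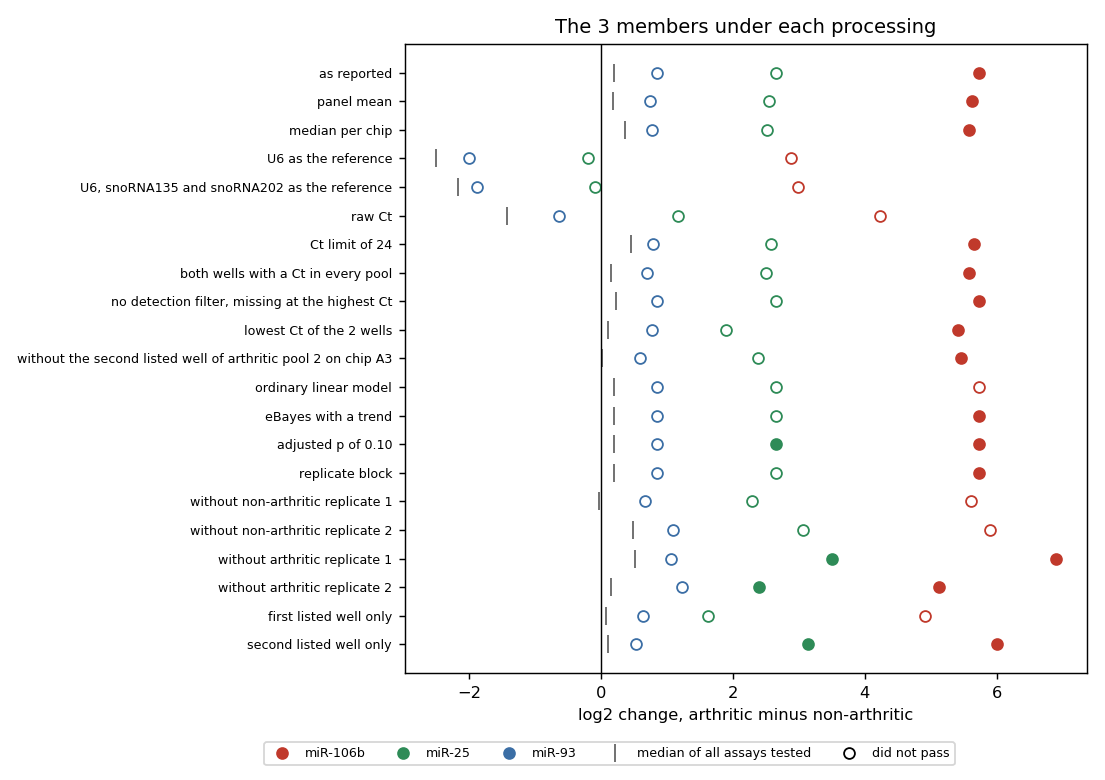
Log2 change (arthritic minus non-arthritic, horizontal axis) of the 3 members under each processing, filled where the change passed, with the median of all tested assays as a grey tick. miR-106b is the rightmost point in every line, from 2.87 to 6.91, and with U6 as the reference the median of all assays moves to -2.51. Between references set per panel the order of the 3 cannot change.

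Because miR-106b and miR-25 were read on the same chip, their difference within a pool does not depend on any reference. miR-106b lay below miR-25 in the non-arthritic pools, by log2 differences of -0.78 and -1.26, and above it in the arthritic pools, by 1.72 and 2.39. The same held in each of the 8 wells, from -1.85 to -0.68 in the non-arthritic and from 1.04 to 3.74 in the arthritic wells. Group means of this difference were -1.02 ± 0.34 and 2.05 ± 0.48 (SD over 2 pools), and the shift of 3.07 log2 units corresponds to 8.42-fold. With 2 pools per group an exact permutation test, two-sided, cannot go below p = 0.333, which is the value it gave for each of the 3 pairs of members, also after adjustment over them.

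miR-106b exceeded miR-93 by 1.64 and 1.51 log2 units in the non-arthritic pools and by 5.49 and 7.42 in the arthritic pools, a shift of 4.87. The wells pointed the same way, with 3.06 as the highest difference in a non-arthritic well and 5.12 as the lowest in an arthritic well. miR-93 lay below miR-25 in all 4 pools, by log2 differences of -2.42 and -2.77 in the non-arthritic and -3.77 and -5.03 in the arthritic pools, a shift of -1.80. In order of level the members thus ran miR-25, miR-106b, miR-93 in both non-arthritic pools and miR-106b, miR-25, miR-93 in both arthritic pools, again taking the assays to amplify alike.

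The opposite arms of the hairpins were read on panel B with human- and rat-named assays. The opposite arm of miR-106b (hsa-miR-106b#, miR-106b-3p) rose as well. It gave mean Cts of 20.2 and 20.6 in the non-arthritic and 17.8 and 20.5 in the arthritic pools. Its levels were -4.69 and -4.95 against -1.32 and -2.12, with no overlap, a difference of 3.10 ± 0.75 log2 units (SE, 8.56-fold, limma adjusted p = 0.0373). Before normalization only arthritic pool 1 stood clear of the non-arthritic pools. The log2 change of this arm was above 0 in all 20 alternatives, some of which reuse the same levels, and passed in 10. It was 1.12 with U6 (limma adjusted p = 0.716). The authors' deposited table gave 2.41 log2 units for this arm, 5.33-fold.

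The opposite arm of miR-93 (hsa-miR-93#, miR-93-3p) gave mean Cts of 10.98 and 10.8 in the non-arthritic and 13.2 and 14.7 in the arthritic pools. Its levels were 4.56 and 4.84 against 3.31 and 3.67, so that both arthritic pools lay below the non-arthritic pools, the opposite order to miR-93 itself with this reference. The difference of -1.20 ± 0.73 log2 units (SE) missed the threshold, with a limma adjusted p of 0.254. With some other references both arms were below 0: the opposite arm stood at -3.18 with U6, -2.28 with U6 and both snoRNAs and -3.08 with raw Ct, beside -2.001, -1.89 and -0.64 for miR-93. With the panel mean and the median per chip the arms kept opposite signs, at -0.77 and -2.14 for the opposite arm beside 0.75 and 0.77 for miR-93. The rat-named assay of the opposite arm of miR-25 gave no Ct in any well. Between arms, the level of miR-93 minus that of its opposite arm was -5.22 and -5.13 in the non-arthritic and -3.10 and -3.13 in the arthritic pools, a shift of 2.06 log2 units. For miR-106b this difference was 5.67 and 6.17 in the non-arthritic and 7.02 and 10.1 in the arthritic pools, a shift of 2.63. These shifts set panel A against panel B and moved with the reference, to 1.18 and 1.75 with U6 and to 2.90 and 3.42 with the median per chip.

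**Figure D3:**
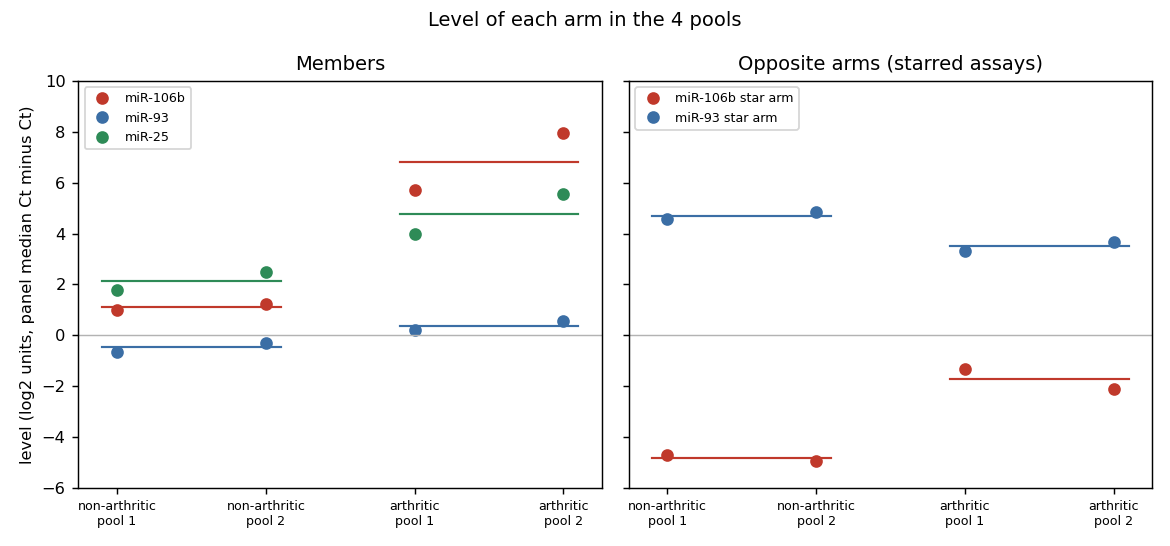
Level (panel median Ct minus Ct, log2 units) of the 3 members and of the 2 opposite arms that gave a Ct, in each pool, with group means as lines. Both arms of miR-106b are higher in the arthritic pools, and the arms of miR-93 differ between groups by 0.85 and -1.20 with this reference, neither past the threshold, and both are below 0 with U6, with U6 and both snoRNAs and with raw Ct.

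Of the 5 other assays with the seed of miR-106b and miR-93, 3 were tested, too few to read against the 21.5% of all assays that passed. There 1 rose and 0 fell, with a median log2 change of -1.06 against 0.19 over all tested assays. miR-20a, of the miR-17-92 cluster that promotes growth, rose 16.6-fold, by 4.05 ± 0.75 on the log2 scale (SE), with a limma adjusted p of 0.0200. Its levels were 4.21 and 4.39 in the non-arthritic and 7.97 and 8.72 in the arthritic pools, without overlap. With U6 its log2 change was 1.19 (limma adjusted p = 0.705). miR-20b and miR-106a, of the X-linked miR-106a-363 cluster, missed the threshold at -1.06 ± 0.74 and -1.33 ± 0.97 log2 units (SE, limma adjusted p = 0.298 and 0.319). For miR-106a, arthritic pool 2 had a Ct in 1 well, and its level of -1.49 there set the value. The log2 change was 0.33 without that pool and -2.41 without arthritic pool 1. miR-17, whose mature sequence differs from these at a few bases, gave a Ct in 1 of its 8 wells (26.9), and a rat-named assay of miR-20b gave none.

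Of the 4 relatives with the seed of miR-25, miR-92a alone was tested. It stood at 5.32 and 6.54 in the non-arthritic and 6.71 and 7.82 in the arthritic pools, a difference of 1.34 ± 0.86 log2 units (SE) that did not pass (limma adjusted p = 0.272) and was -1.52 with U6. Without 1 pool its log2 change ran from 0.73 to 1.99. miR-367, known from embryonic stem cells, gave mean Cts of 10.0, 8.98 and 9.96 in the non-arthritic pools and arthritic pool 2, yet no Ct in either well of arthritic pool 1. miR-32 and miR-363 gave no Ct in any well.

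In the paralogous miR-17-92 and miR-106a-363 clusters 7 of 10 assays were tested. The risers were 3 (miR-20a, miR-19a and miR-18a) and 0 fell, with a median log2 change of 1.89, where 9.57% of all tested assays passed as higher and 12% as lower. miR-19a and miR-18a, which carry other seeds, rose by 4.98 ± 1.01 and 3.17 ± 0.74 on the log2 scale (SE), with limma adjusted p of 0.0235 and 0.0325. miR-19b, at 1.89 ± 0.79, missed the threshold (limma adjusted p = 0.117) and stood at 2.68 without arthritic pool 2. miR-19a passed in 5 of 18 alternatives and miR-18a in 9 of 20. Neither passed with the panel mean (limma adjusted p = 0.0695 and 0.0524), the median per chip, no detection filter or the lowest Ct. The log2 change of miR-19a ran from 3.81 to 6.73 without 1 pool and was 3.72 with a Ct limit of 24 (limma adjusted p = 0.0722). None of miR-20a, miR-19a, miR-18a and the opposite arm of miR-106b passed without either non-arthritic pool. With U6, miR-19a, miR-18a and miR-19b stood at 2.12, 0.31 and -0.96. 

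**Figure D4:**
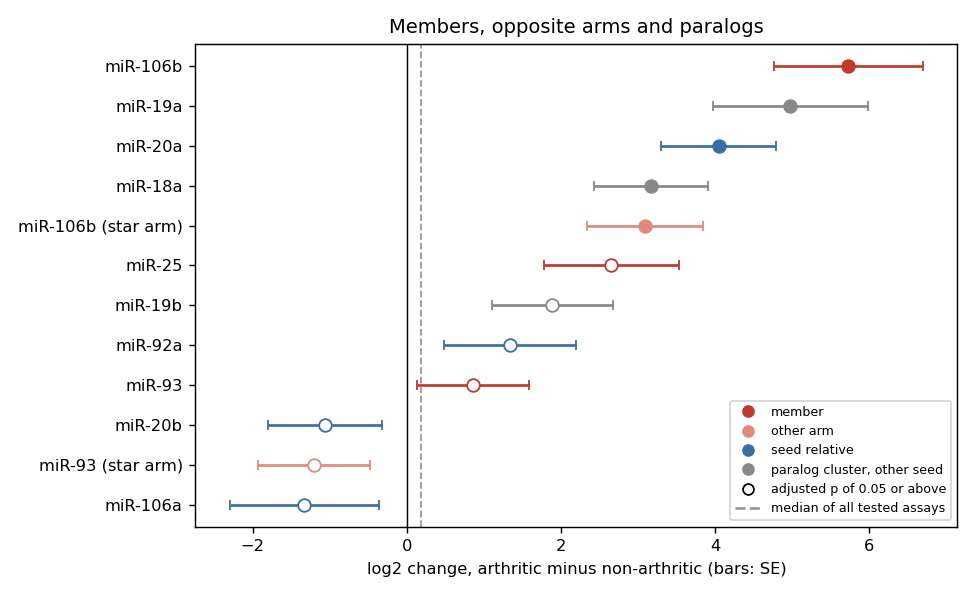
Log2 change (arthritic minus non-arthritic, with SE) of the members, their opposite arms and the tested assays of the paralogous clusters, filled where the adjusted p was under 0.05. miR-106b leads at 5.73, and assays with its seed run from -1.33 (miR-106a) to 4.05 (miR-20a), beside a median of 0.19 over all 209 tested assays.

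The assays whose levels over the 4 pools lay nearest to those of a member, after each assay was centred on its mean, were others than the members. Assays picked in this way have changes of like size to the member's by construction. For miR-106b they were miR-652 (distance 0.80 log2 units), let-7f (1.16) and miR-467a (1.59), all 3 of which rose. For miR-25 they were miR-190 (0.23), miR-18a# (0.45) and miR-15b (0.65), and for miR-93 a rat-named assay of miR-409-3p (0.21), miR-30b (0.31) and miR-411 (0.32), none of which passed. Between members the distance was 3.13 for miR-106b and miR-25, with 20 assays nearer to miR-106b and 98 nearer to miR-25. It was 2.02 for miR-93 and miR-25, with 78 assays nearer to miR-93 and 55 nearer to miR-25. For miR-106b and miR-93 it was 5.06, with 77 assays nearer to miR-106b and 180 nearer to miR-93. These distances rest on 4 pools each and describe only these pools.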

How the data were processed

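Per the labels' protocols, RNA came from a mirVana extraction, and TaqMan reagents turned 500 ng of it into cDNA. The authors deposited raw Cts (in cycles, BioMark, per the file headers), in which 999 stands for no Ct. The sources used here do not give the Ct thresholds. A second table that the authors deposited holds log2 averages, their differences and the fold, without its normalization.

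Of 6096 wells 2083 had a Ct, from 2.50 to 26.997. A pool's value was the mean of its wells that gave a Ct. The fit took 134 panel A and 75 panel B assays with a value in every pool, and no control assay. It used R 4.3.3 and limma 3.58.1 (two-sided moderated test on levels, with 4.02 prior and 2 residual degrees of freedom) and Benjamini-Hochberg adjustment over all 209 at 0.05. Precision was limited by 2 pools per group, with a median standard error of 0.87 log2 units. Member differences used an exact permutation test (scipy 1.17.1), and figures matplotlib 3.10.9.

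The rule for named miRNAs took the members, other assays of their hairpins, assays of the paralogous clusters or sharing a seed, the 3 tested assays nearest to each member and the control RNAs. The members, lists and settings were chosen with earlier results of these data known, and the settings with 1 listed well after the data were seen.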

Additional observations from a re-analysis of the deposited data

How the results depend on the processing

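Of 20 alternatives, miR-106b was above 0 in all and passed in 13, miR-25 was above 0 in 18 and passed in 4, and miR-93 was above 0 in 17 and passed in 0. Ordinary linear models, limma with a trend in the spread, the threshold of 0.10 and the replicate block reuse the levels as reported. The sign of a change cannot differ there. The counts also hold the settings with 1 pool left out, where the spread comes from the group with 2 pools alone. The number of assays that passed, 45 as reported, was 25 with the panel mean, 8 with raw Ct (65 at an unadjusted p under 0.05), 25 with no detection filter, 0 with ordinary linear models (55 at an unadjusted p under 0.05), 79 at an adjusted p of 0.10 and 21 with the first listed well. Leaving out 1 pool gave 0 to 121: limma called 0 without non-arthritic pool 1 or 2 (42 and 25 at an unadjusted p under 0.05), 121 without arthritic pool 1 and 97 without arthritic pool 2.

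miR-106b did not pass with U6 (2.87), with U6 and both snoRNAs (2.99), with raw Ct (4.24), with ordinary linear models (5.73), with the first listed well (4.92), or without non-arthritic pool 1 or 2. Without 1 pool its log2 change ran from 5.13 to 6.91. miR-25 passed at an adjusted p of 0.10 (2.66) and with the second listed well (3.15), was -0.20 with U6 and -0.087 with U6 and both snoRNAs, and ran from 2.29 to 3.50 without 1 pool. miR-93 was -2.001 with U6, -1.89 with U6 and both snoRNAs and -0.64 with raw Ct, and ran from 0.67 to 1.22 without 1 pool. Among the relatives miR-92a was -1.52, -1.40 and -0.16 and miR-19b -0.96 and -0.85 in the same order of references, and miR-106a ran from -2.41 to 0.33 without 1 pool. Of the control RNAs on panel A, the untested log2 change against the panel median was 2.86 for U6, 4.61 for snoRNA135 and 0.76 for snoRNA202. On panel B, where the opposite arms were read, it was 1.97, 2.03 and -0.77 in the same order. The cause of these shifts was not tested.

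The shift of miR-106b against miR-25 ran from 2.74 to 3.41 without 1 pool and was 3.52 with the lowest Ct of the wells. That of miR-106b against miR-93 ran from 3.91 to 5.84 without 1 pool. That of miR-93 against miR-25 was -1.12 with the lowest Ct, -0.99 and -2.61 with the first and the second listed well, and ran from -2.43 to -1.17 without 1 pool.

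With a replicate block for the pool number 66 assays passed, miR-106b at 5.73 kept its call, and miR-25 and miR-93 did not pass. In that fit the members and their relatives all had the same SE, 1.14 log2 units, as they had with U6 (1.80 log2 units). An assay's own spread therefore did not enter its p-value, and these calls cannot be set against those of the fit as reported. The deviations of same-numbered pools from their group means correlated at 0.074 over 209 assays, and 2 pairs cannot show a pairing.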
